A study of Drosophila melanogaster with 10 samples.

Results

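The Hedgehog signalling genes described here are 9 core components of the pathway in Drosophila, namely the ligand gene hh, its release factor disp, the receptor gene ptc, the co-receptor gene ihog, the signal transducer gene smo, the cytoplasmic genes cos, fu and Su(fu), and the transcription factor gene ci. They were chosen by gene symbol, as probe sets annotated to a single listed gene. Each gene matched 1 probe set, which gives 9 genes of 12375 named genes and 9 of 13773 probe sets with 1 symbol. The table spells ihog as iHog, and this probe set was matched through its RefSeq accession. The genes were picked after a small rise of a wider annotation, smoothened signalling, had been seen in the same comparison of the same arrays, so every difference between the groups is given as a description.

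Levels were measured in DL1 cells, a blood-cell-like line of Drosophila melanogaster that internalises double-stranded RNA (dsRNA) added to the culture. The control RNAi group received dsRNA against renilla, a luciferase gene that flies lack, and the nbr RNAi group received dsRNA against nbr (CG9247), the gene of Nibbler, a nuclease that shortens microRNAs at their 3' ends. Both groups were cells of the same line, for which the labels name no other treatment or allele, kept at 25 °C and collected after 5 days, with 5 independent replicates and 5 Drosophila_2 arrays each. Values are log2 levels per probe set as deposited, after GCRMA, and the number of arrays limits their precision.

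In the Hedgehog pathway the secreted ligand is released from producing cells by Dispatched and binds Patched on receiving cells together with the co-receptors Ihog and Boi. Binding frees Smoothened from inhibition by Patched, and Smoothened acts through the kinesin-like scaffold Costal, the kinase Fused and the inhibitor Suppressor of fused on the transcription factor Cubitus interruptus, which is otherwise cut to a repressor after phosphorylation. In fly blood, Hedgehog from the posterior signalling centre of the larval lymph gland is known for keeping blood cell progenitors undifferentiated.

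The knockdown and the cell type were checked first. The level of nbr was 11.16 to 11.48 on the control arrays and 7.56 to 8.84 on the nbr RNAi arrays, a log2 fold change of -3.16 (95% interval -3.61 to -2.71) that passed limma's test (Benjamini-Hochberg adjusted p = 1.46e-04). Of 10 blood cell marker genes, 7 had a mean log2 level of at least 4, the minimum for testing, and vkg, Col4a1 and Sr-CI did not. The mean over those 7 genes was 10.21 to 10.38 on the control arrays and 9.99 to 10.46 on the nbr RNAi arrays, and over all 11 probe sets of the list, those near background included, it was 7.31 to 7.42 and 7.18 to 7.47. No marker of muscle (0 of 4) or fat body (0 of 4) reached the minimum, nor did the defining glia marker repo, while elav among 4 neuron markers, tj among 3 matched germline and gonad markers, moody among 2 glia markers, and en and nub among 5 markers of imaginal discs did. Of these disc markers, nub was at a log2 fold change of 0.60 and en at 0.26, neither passed limma's test over all probe sets, and their part in the results was not tested. Averaged over the 10 arrays, the tested probe sets of the 7 blood cell markers ran from 5.64 (Pxn) to 14.38 (He). The other markers above the minimum lay within that range, at 8.70 (elav), 8.33 (nub), 7.59 (en), 6.70 (moody) and 6.17 (tj). In such bulk samples fewer cells of a type and less RNA per cell cannot be told apart. Array 5 of nbr RNAi had the lowest mean correlation with the other arrays (0.982, against 0.993 to 0.995 for the rest).

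The 7 core genes that could be tested averaged slightly higher in nbr RNAi than in control RNAi, and none passed the test. Their log2 fold changes ran from 0.068 for disp to 0.43 for hh, with a median of 0.13, an excess of 9.17%, against a median of 0.0056 over the 7729 probe sets tested. Over all 9 genes the median was 0.11. The remaining 2 genes, ptc and ci, lay under the minimum on every array. All 7 tested genes were above the minimum on every array of both groups, so none was measured only because of one group.

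**Figure D1:**
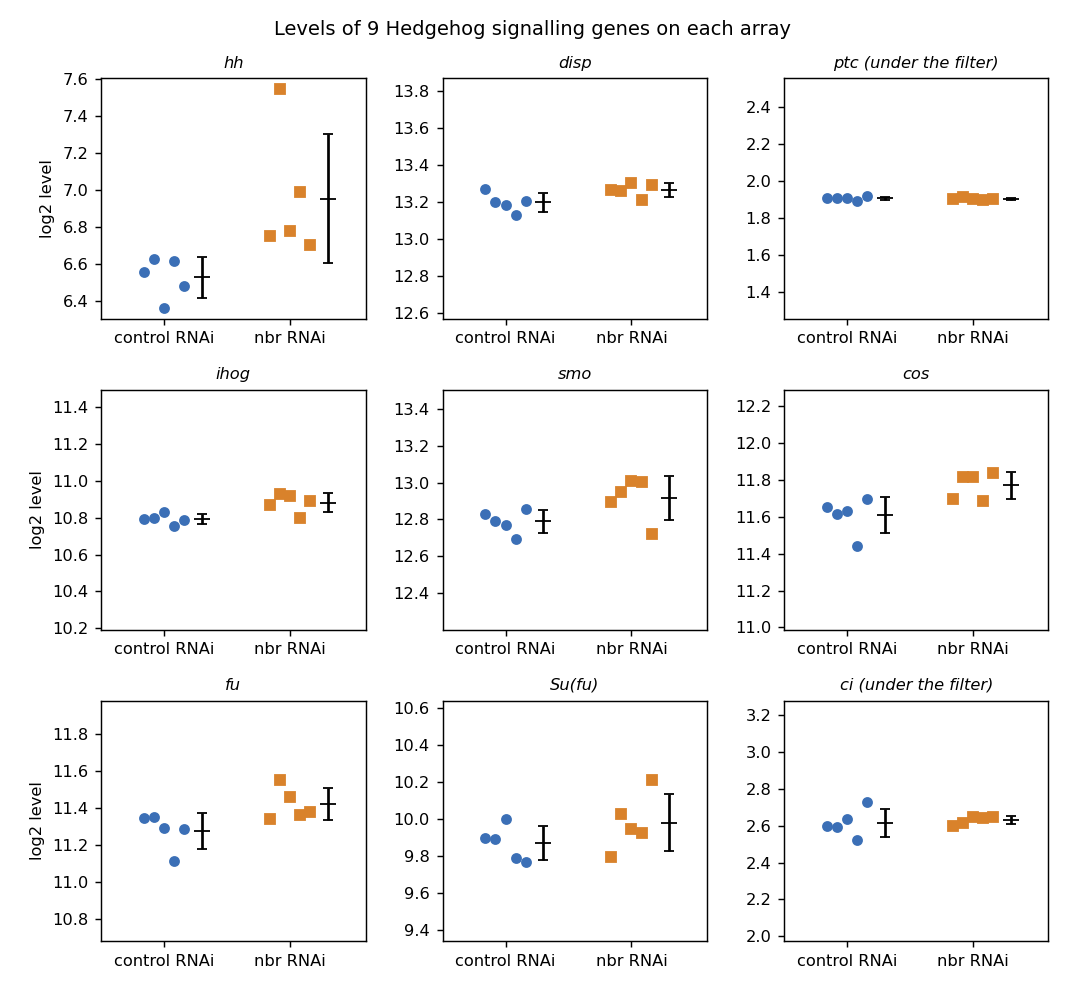
Log2 level of each of the 9 genes on each array, with 5 control RNAi arrays (circles, array 1 to 5 from left to right) and 5 nbr RNAi arrays (squares), and the mean with its SD in black; every panel spans the same range of log2 units. The groups are apart for hh, overlap slightly for cos, fu and ihog and more for disp, smo and Su(fu), and coincide for ptc and ci.

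The ligand gene hh (FBgn0004644) was the only core gene whose groups did not overlap. Every treated array exceeded every control array for 0.75% of all probe sets tested, and hh did not pass limma's test. Its log2 level on control arrays 1 to 5 was 6.56, 6.62, 6.36, 6.62 and 6.48, and on nbr RNAi arrays 1 to 5 it was 6.75, 7.55, 6.78, 6.99 and 6.70. All 5 treated arrays lay above the highest control array, by a gap of 0.079, and array 2 of nbr RNAi stood above the rest. The group means were 6.53 ± 0.11 (SD, n = 5) and 6.95 ± 0.35 (SD, n = 5), a log2 fold change of 0.43 (95% interval 0.097 to 0.75), or 1.34-fold with bounds of 1.07-fold and 1.69-fold. Among the probe sets tested, this fold change was in position 39 from the top. Without nbr RNAi array 2 it was 0.28.

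The gene disp (FBgn0029088) encodes the membrane protein that releases the lipid-modified ligand. Its log2 level on control arrays 1 to 5 was 13.27, 13.20, 13.18, 13.13 and 13.21, and on nbr RNAi arrays 1 to 5 it was 13.27, 13.26, 13.31, 13.21 and 13.29. Control array 1 reached into the treated group and the other control arrays lay below all treated arrays. The log2 fold change was 0.068 with a 95% interval of -0.018 to 0.15, an excess of 4.81%.

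The receptor gene ptc (FBgn0003892), which is also a classical target of the pathway, had no level above background on these arrays. It ran from 1.90 to 1.92 on control arrays and from 1.90 to 1.91 on nbr RNAi arrays. The groups coincided, and at such values a difference in the transcript was not detectable. The co-receptor gene ihog (FBgn0031872) was well above the minimum, at 10.79, 10.80, 10.83, 10.76 and 10.78 on control arrays 1 to 5 and at 10.87, 10.93, 10.92, 10.80 and 10.89 on nbr RNAi arrays 1 to 5. Of the treated arrays, 4 lay above every control array and array 4 lay within the control range. The log2 fold change of ihog was 0.088 with a 95% interval of 0.0042 to 0.17.

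The gene smo (FBgn0003444) encodes the seven-pass membrane protein that carries the signal into the cell. Its log2 level was 12.83, 12.79, 12.77, 12.70 and 12.86 on control arrays 1 to 5 and 12.90, 12.95, 13.01, 13.00 and 12.72 on nbr RNAi arrays 1 to 5. Arrays 1 to 4 of nbr RNAi lay above every control array, while array 5 lay below all control arrays but one. The log2 fold change was 0.13 with a 95% interval of -0.0067 to 0.26, and 0.17 without nbr RNAi array 5.

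Among the cytoplasmic genes, cos (FBgn0000352), the gene of the kinesin-like scaffold Costal, had the largest difference. It was at 11.65, 11.61, 11.63, 11.44 and 11.69 on control arrays 1 to 5 and at 11.69, 11.81, 11.82, 11.69 and 11.83 on nbr RNAi arrays 1 to 5. The groups met within 0.01 at control array 5 and nbr RNAi arrays 1 and 4, and control array 4 was the lowest. The log2 fold change was 0.16 with a 95% interval of 0.038 to 0.29, and 0.12 without control array 4.

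The kinase gene fu (FBgn0001079) was at 11.34, 11.35, 11.29, 11.11 and 11.28 on control arrays 1 to 5 and at 11.34, 11.55, 11.46, 11.36 and 11.38 on nbr RNAi arrays 1 to 5. Control array 4 was apart from the other control arrays, and 4 treated arrays lay above every control array. The log2 fold change was 0.14 with a 95% interval of 0.0097 to 0.27, and 0.10 without control array 4. Su(fu) (FBgn0005355), whose product holds back Cubitus interruptus, was at 9.90, 9.89, 10.002, 9.79 and 9.77 on control arrays 1 to 5 and at 9.79, 10.03, 9.95, 9.92 and 10.21 on nbr RNAi arrays 1 to 5. The groups overlapped widely and array 5 of nbr RNAi was the highest. Its log2 fold change was 0.11 with a 95% interval of -0.061 to 0.28, and 0.052 without that array.

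The effector gene ci (FBgn0004859) lay near background, like ptc. It ran from 2.52 to 2.73 on control arrays and from 2.60 to 2.65 on nbr RNAi arrays, so all treated arrays lay within the range of the controls. Each of ci and ptc is represented by 1 probe set, and whether these probe sets detect their transcripts was not tested.

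**Figure D2:**
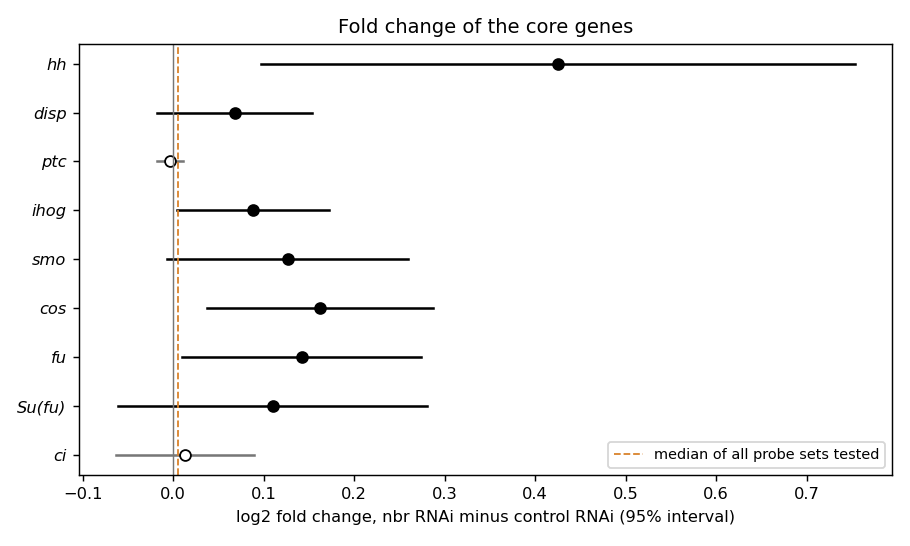
Log2 fold change (nbr RNAi minus control RNAi) of each core gene with its 95% interval, filled for the 7 tested genes and open for ptc and ci, which were under the minimum. The point of hh lies at 0.43, those of the other tested genes between 0.068 and 0.16, and the dashed line marks the median of all probe sets tested, 0.0056.

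Over the whole table, limma called 2 of 7729 probe sets at a Benjamini-Hochberg adjusted p under 0.05 (0.0259%), and 0 of the 7 tested core genes were among them, with adjusted p from 0.849 to 0.876. At an unadjusted p under 0.05, 4 core genes were higher (hh, cos, fu and ihog) and 0 lower, where the background was 4.15% higher and 1.72% lower. A log2 fold change above 0 was found for 7 of 7 core genes and for 52.9% of all probe sets tested. Every treated array exceeded every control array for 1 core gene, hh, and for 0.75% of all probe sets. Since the genes were chosen with this comparison known, nothing is read from these counts. For the 6 tested genes other than hh, the 95% intervals all stayed within a 1.5-fold change, and the highest bound was 1.22-fold for cos. In the authors' deposited table the q-value was 19.5% for hh, disp, ihog, smo, cos and fu, 36.6% for Su(fu), 37.1% for ci and 38.5% for ptc. These q-values are the authors' own and were not computed with limma. The share of all probe sets at such values was not computed, and the value of 19.5% does not rank the genes that share it.

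Seen array by array, the median of the 7 tested core genes lay above their control means on each treated array, and on every control array except array 4. All 7 genes lay above their control means on nbr RNAi arrays 2, 3 and 4 and on control arrays 1 and 2. On nbr RNAi arrays 1 and 5 it was 6 genes, on control arrays 3 and 5 it was 4, and on control array 4 it was 1. The median difference of the 7 genes from their control means was 0.077, 0.16, 0.18, 0.080 and 0.10 on nbr RNAi arrays 1 to 5, and 0.039, 0.0069, 0.016, -0.080 and 0.0062 on control arrays 1 to 5. Control array 4 was the lowest, and it held the lowest control value of 5 of the 7 genes, while the median of all probe sets tested on that array was 0.010. On nbr RNAi array 5 the median of all probe sets tested was itself 0.065. Without control array 4 the median log2 fold change of the 7 genes was 0.10, and without nbr RNAi array 5 it was 0.15.

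**Figure D3:**
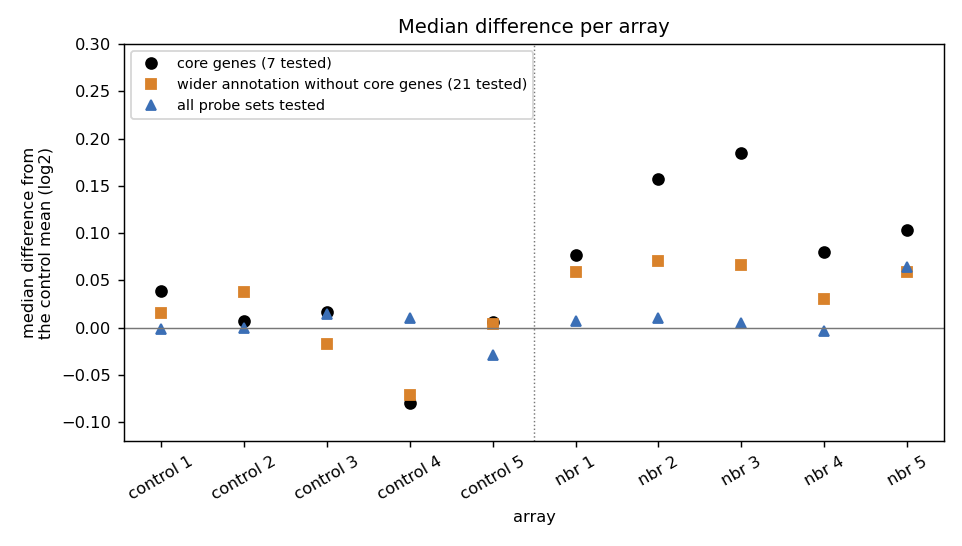
Median difference from the control mean on each array (log2), for the 7 tested core genes (circles), 21 tested genes of the wider annotation without the core genes (squares) and all 7729 probe sets tested (triangles). The core genes lie at 0.077 to 0.18 on the nbr RNAi arrays and at -0.080 to 0.039 on the control arrays.

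Within the groups, deviations from the group means over the 10 arrays had a Pearson r above 0 for 16 of 21 pairs of genes, with a median of 0.33. The 6 pairs among cos, fu, disp and ihog ran from 0.56 for disp and ihog to 0.76 for cos and fu, and the lowest of all pairs was -0.51 for smo and Su(fu). These pairs share the same 10 arrays, so an array that stands apart enters all of them, and hh had values from -0.21 with disp to 0.45 with fu. The share of pairs above 0 among other probe sets was not computed, so nothing about the pathway is read from these values.

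By the same measure, among 6966 probe sets of other genes, the pattern of hh was most like those of CG7069 (r = 0.95) and Eip74EF (0.95), an ecdysone-induced transcription factor gene. For smo these were Zmynd8 (0.98) and didum (0.97), a gene of an unconventional myosin, and for fu CG2218 (0.98) and Liprin-gamma (0.94). The genes most like cos were RtGEF (0.95) and Asap (0.95), and those most like Su(fu) were CG34231 (0.97) and PheRS-m (0.95), a mitochondrial tRNA synthetase gene. For disp they were spri (0.94) and TotC (0.92), and for ihog Snoo (0.95) and CG3829 (0.94). The 2 genes named for each are those with the highest of 6966 values over 10 arrays, and they are given as a description.

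Whether the core genes share the small excess of the wider annotation was asked next. The deposited annotation gives a smoothened signalling term to all 9 core genes and to 26 other genes, of which 21 were tested. With the 7 core genes included, the median log2 fold change of the 28 tested genes was 0.087, and without them it was 0.073, below the 0.13 of the core genes and above the 0.0056 of all probe sets tested. Over all 31 probe sets of the 26 genes, those near background included, the median was 0.0098. Of the 21 other genes 13 were above 0 (background 52.9%), 4 were higher at an unadjusted p under 0.05 (background 4.15%), and 0 passed limma (Benjamini-Hochberg adjusted p from 0.849 to 0.995). The difference between the core genes and the rest of the annotation was not tested. The median of the 21 genes was 0.048 without control array 3.

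The wider genes with the highest fold changes have varied roles. Sxl, the splicing regulator of sex determination, was at 0.31 (95% interval -0.36 to 0.98). The kinesin gene pav, which acts in cytokinesis, was at 0.25 (interval 0.035 to 0.47), and the co-receptor gene boi, a relative of ihog, was at 0.19 (0.0095 to 0.38). The histone methyltransferase gene trr was at 0.19 (0.0048 to 0.37). At the lower end, the gene listed as l(2)tid, CG5504 in RefSeq, which encodes a DnaJ chaperone, was at -0.15, and dlp, a glypican gene, was at -0.12. The acyltransferase gene rasp, needed to palmitoylate the ligand, was at -0.064 and the ubiquitin-like modifier gene Nedd8 at -0.044. All 4 of these lower intervals included 0.

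**Figure D4:**
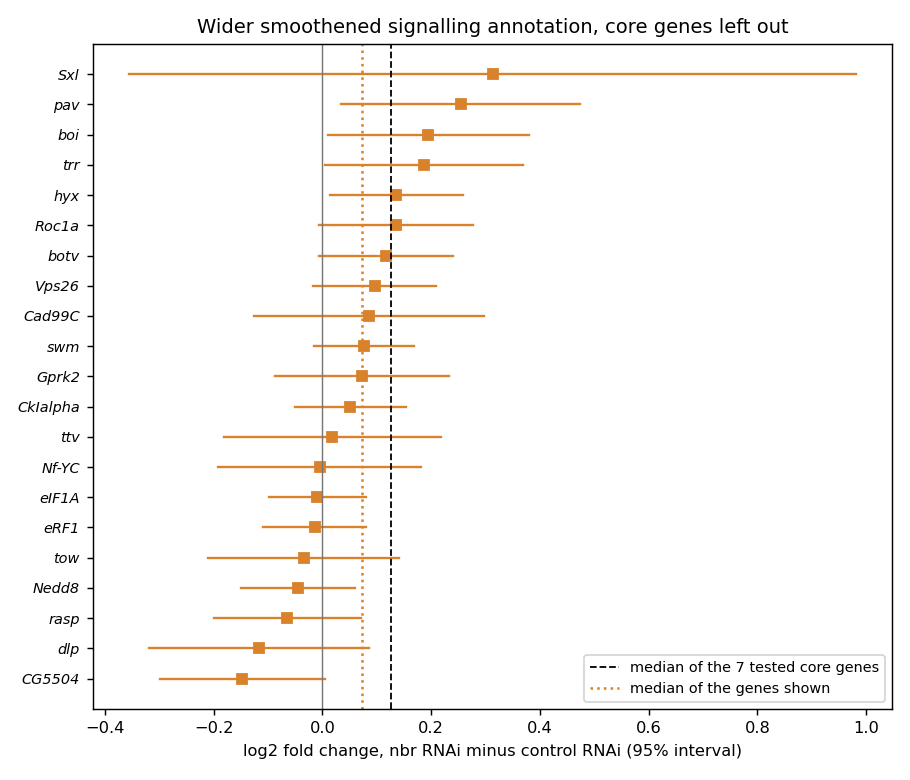
Log2 fold change (nbr RNAi minus control RNAi) with 95% interval of the 21 tested genes of the smoothened signalling annotation other than the core genes. The genes run from -0.15 for CG5504 to 0.31 for Sxl, with their median at 0.073 (dotted) and that of the 7 core genes at 0.13 (dashed).

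Genes of the pathway were also taken from lists by role, which overlap with the wider annotation, so their counts are not separate from those above. The genes boi, rasp, shf, dlp, ttv and botv of ligand release and reception are in both. So are CkIalpha and Gprk2 of the cytoplasmic regulators, and rdx is both a regulator and a target in these lists. Of 7 matched genes of ligand release and reception 6 were tested, and 0 passed limma (background 0.0259%). The median log2 fold change was 0.045, with 4 above 0 (background 52.9%) and 2 below. An unadjusted limma p under 0.05 was reached by 1 of the 6, as higher (background 4.15%). This was boi, already counted in the wider annotation. The co-receptor gene boi was at 0.19, and the glypican genes, whose heparan sulphate chains bind the ligand, were at 0.071 for dally and -0.12 for dlp. The gene shf, which is needed for ligand spread in wings, was under the minimum. The core genes of reception with a level, ihog and smo, were at 0.088 and 0.13.

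Of the cytoplasmic regulators, 13 genes were tested with 14 probe sets, and 0 passed limma. Their median was 0.023, with 8 probe sets above 0 (background 52.9%) and 6 below, and 1 was higher at an unadjusted p under 0.05 (background 4.15%). The kinase genes whose products phosphorylate Cubitus interruptus showed no common direction: CkIalpha was at 0.051, Pka-C1 at -0.14, and the 2 tested sgg probe sets were at -0.27 and -0.014. The F-box gene slmb, whose product directs the cutting of Cubitus interruptus, was at 0.12 (95% interval -0.028 to 0.26). Of the cullin genes, Cul3 was at -0.033, and Cul1, singled out once its values had been seen, was at 0.12 (0.029 to 0.20). All 5 treated arrays of Cul1 lay above all control arrays by 0.015, and 0.75% of all probe sets tested were apart in this way. The Benjamini-Hochberg adjusted p of Cul1 in limma was 0.849.

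Of 12 genes described as targets in fly tissues, 6 were under the minimum, and these included dpp, wg and kn. The signalling genes dpp and wg lay between 2.37 and 2.52 on all arrays, and both kn probe sets between 2.11 and 2.41. Of the 6 tested genes 4 were above 0 (background 52.9%) and 2 below, with 0 passing limma (background 0.0259%). Their median was 0.12, against 0.0056 over all probe sets tested, and whether the targets differ from the background was not tested. The cyclin gene CycE was at 0.25 (0.030 to 0.47), the only one of the 6 at an unadjusted p under 0.05 (background 4.15% higher), and the phosphatase gene stg was at 0.14. The cyclin gene CycD was at -0.098 and dac, a gene of a nuclear factor, at -0.13, and both intervals included 0. CycE, stg, CycD and dac were singled out once their values had been seen. The gene en, whose product maintains hh expression in posterior compartments, ran from 7.16 to 8.14 on control arrays and from 6.38 to 8.66 on nbr RNAi arrays, with a log2 fold change of 0.26 and an interval of -0.58 to 1.10. The adaptor gene rdx, which directs Cubitus interruptus to Cul3 ligases, was at 0.11 (-0.11 to 0.32). The receptor gene ptc, the effector gene ci and these 6 target genes were under the minimum in both groups.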

How the data were processed

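The log2 levels were deposited by the authors, 1 value per probe set and array; the submitters' processing notes name GCRMA and Partek, and their versions and order are not given in the sources used here. As GCRMA applies quantile normalization, unequal amounts of RNA per cell cannot be seen. Per the labels' protocols, cDNA was made with a whole-transcriptome amplification kit. Per the file headers, the authors' table also holds a q-value in percent, which was copied. Its header writes tmr, taken here as nbr. Symbols were updated through RefSeq accessions (Release 6 plus ISO1 MT) and otherwise kept, and nbr is spelled as in the labels.

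The 7729 non-control probe sets averaging at least 4 were fitted with limma 3.58.1 in R 4.3.3 (lmFit, eBayes, no covariates, 2-sided), with Benjamini-Hochberg adjustment over all of them and a threshold of 0.05. Genes under that minimum have estimates from a fit without it and no call. Likeness is the Pearson correlation of deviations from group means, for the 2 genes with the highest values. The fit was also run on simulated data, with changes larger than those of the core genes other than hh, so that run does not bear on changes as small as theirs. Python 3.11.15 with pandas 2.3.3 and matplotlib 3.10.9 gave the tables and plots. Named genes were all core genes, nbr, preset members of the lists by role, and the 4 highest and 4 lowest of the wider annotation. From the same lists, Cul1, CycE, stg, CycD and dac were added once their values had been seen. Members and lists were chosen with earlier results of these data known. Alternatives were other filters and normalizations, array weights, a robust trend, a replicate block, the brightest probe set of each gene, and fits that left out an array.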

Additional observations from a re-analysis of the deposited data

Results flagged for a closer look

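The level of fu on control RNAi array 4, 11.11, lay far from the other control arrays, which ran from 11.28 to 11.35, with a gap to the nearest of 0.719 of the group's range. Chance gives about 1 such group in 20, and 20 groups of 5 arrays were examined (9 core genes and nbr, in both treatments). The log2 fold change of fu was 0.10 without this array.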

How the results depend on the processing

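No core gene and no gene of the wider annotation was called by limma in any of the 18 alternatives run. The 7 tested core genes kept a log2 fold change above 0 in the 17 that refitted the data. The brightest probe set of each gene changes nothing here, since each tested gene of both sets has 1 tested probe set. The median of the tested core genes, 0.13, ran from 0.10 to 0.16 when single arrays were left out. It was 0.11 with array weights and 0.13 with the replicate number as a block. The number of core genes at an unadjusted limma p under 0.05, 4 in the main fit, ran from 2 to 5. It was 2 with quantile normalization, without control array 4 or 5, and without nbr RNAi array 2 or 3. With the replicate block it was 3, and without the filter 5. The median of the wider annotation, 0.073, ran from 0.048 to 0.084 when single arrays were left out and was 0.0098 without the filter, which adds probe sets near background. Su(fu) was at 0.022 with array weights. Deviations of same-numbered arrays of the groups had correlations from -0.47 to 0.18. Single pairs of arrays cannot show whether same-numbered cultures were handled together, so whether the numbers pair the arrays was not settled. Genes under the minimum, ci and ptc among them, give no limit on a change.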
